A study of Mus musculus with 8 samples.

Results

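Cells make cholesterol and fatty acids from acetyl-CoA by separate enzyme pathways that share a pair of transcription factors, and 8 genes of this system were examined in mouse hind limb muscle during disuse. They were taken by name, and 7 of the 8 had a probe set among the 21212 on the arrays. Srebf1 and Srebf2 encode the sterol regulatory element binding proteins, Insig1 their brake in the endoplasmic reticulum, Sqle an enzyme of cholesterol synthesis, and Acaca, Fasn and Scd1 enzymes of fatty acid synthesis. Hmgcs1, which makes the precursor of mevalonate, was not analysed here. The 8 samples were total RNA of gastrocnemius and plantaris from female wild type C57BL/6J mice, 7 weeks old and housed individually. Hind limb unloading, in which the hind limbs are raised so that they bear no load, lasted 5 days in 4 mice, and the other 4 stayed weight bearing. Each RNA sample was hybridised to its own Affymetrix Mouse Gene 1.0 ST array, and levels are log2 expression values. The comparison asks how the transcripts of muscle changed with unloading.

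SREBP proteins are made as precursors bound to the membrane of the endoplasmic reticulum. When sterols are scarce the escort protein SCAP brings them to the Golgi, where proteases release the part that enters the nucleus, and when sterols are abundant INSIG proteins hold SCAP back. SREBP-2 is known mainly for genes of cholesterol synthesis and uptake, and the SREBP-1c form for genes of fatty acid synthesis. Muscle makes little fat compared with liver and adipose tissue, and whole muscle also holds fat cells, nerve, vessels and connective tissue.

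The deposited values had been normalized to a common distribution, so their array medians (6.28 to 6.33) carry no information on signal. The arrays correlated with r between 0.996 and 0.997 within and between 0.992 and 0.994 across the groups. Ckm, muscle creatine kinase, was at 13.14 ± 0.01 in unloaded and 13.17 ± 0.03 in weight bearing muscle (mean ± SD, n = 4). Of all probe sets 12.8% were higher and 11.0% lower in unloaded muscle (23.8% in all) at an adjusted p under 0.05 by limma, a linear model that shares information on the spread between genes. Their median log2 change was 0.04.

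Srebf1 was higher and Srebf2 lower in unloaded muscle, and the test called none of the other 5 genes. Thus 1 of 7 was higher and 1 of 7 lower, which is 28.6% of the genes measured, against 23.8% of all probe sets, so the share called is near the background. The 7 changes ran from -0.25 to 0.55 on the log2 scale with a median of 0.22. At an unadjusted p under 0.05 the counts were also 1 and 1, against 22.0% and 15.4% of all probe sets, and by the methods' t-test they were 1 and 0, against 6.57% and 6.48% of all probe sets. The arrays of the groups did not overlap in 1 of the 7 genes, Srebf1, against 27.5% of all probe sets. In whole muscle, fewer cells of a type and less RNA per cell cannot be told apart.

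**Figure D1:**
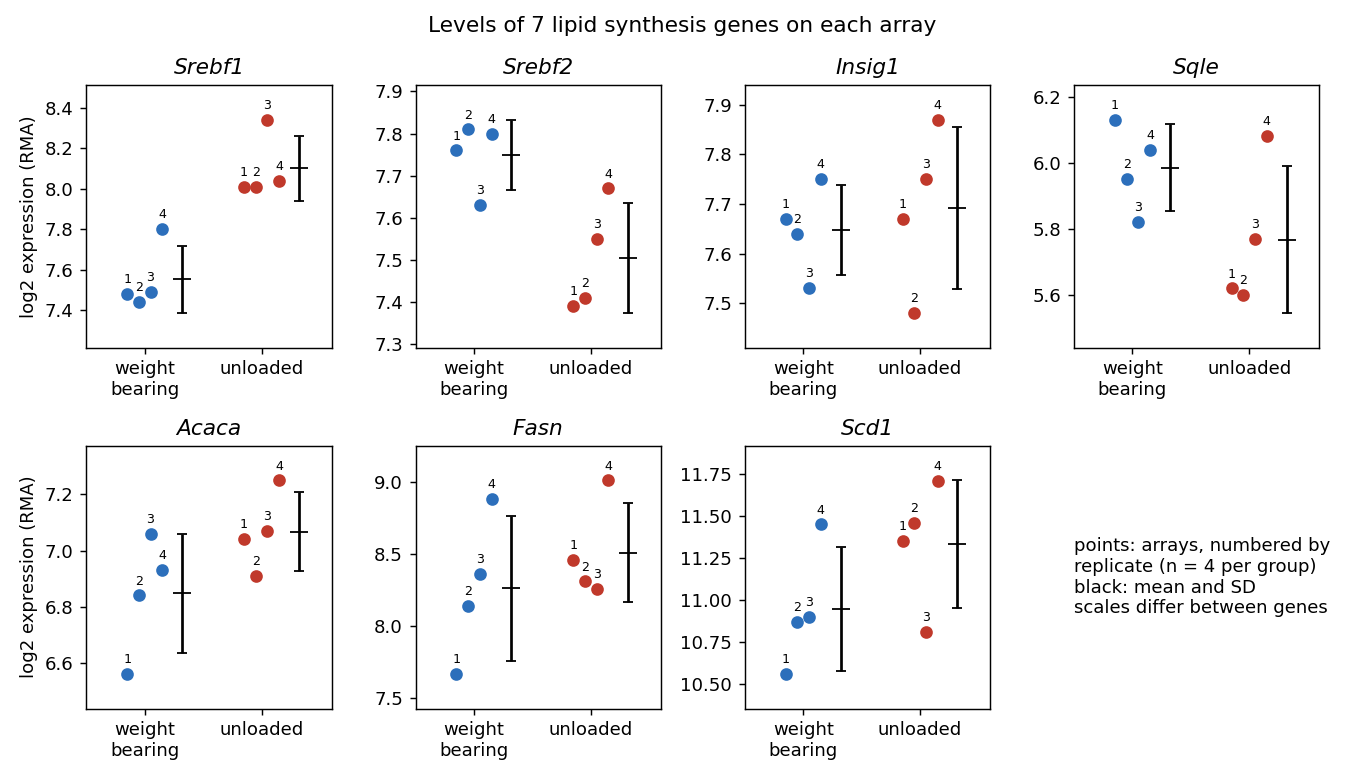
Log2 expression (RMA, vertical axes with a scale per gene) of the 7 genes on each array, with points numbered by replicate and the group mean and SD in black (n = 4 each). All 4 unloaded arrays lie above all weight bearing arrays for Srebf1, while the other 6 genes overlap.

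The regulators were read first. Srebf1, whose SREBP-1c form drives fatty acid synthesis genes, was at 8.01, 8.01, 8.34 and 8.04 on unloaded arrays 1 to 4 and at 7.48, 7.44, 7.49 and 7.80 on weight bearing arrays 1 to 4. All unloaded arrays were above all weight bearing ones, and in each group 1 array stood above 3 close values. The means were 8.10 ± 0.16 and 7.55 ± 0.17 (SD, n = 4 each), a rise of 1.46-fold (log2 change 0.55, 95% interval 0.33 to 0.77, limma adjusted p = 0.0031). This change was larger than that of 97.5% of all probe sets. Srebf1 stayed called with each of the 8 arrays left out in turn (adjusted p at most 0.0106) and by the methods' t-test (adjusted p = 0.0344). The probe set covers the gene as a whole, so the transcripts for SREBP-1a and SREBP-1c were not separated.

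Srebf2, the main activator of cholesterol synthesis genes, was at 7.39, 7.41, 7.55 and 7.67 in unloaded and at 7.76, 7.81, 7.63 and 7.80 in weight bearing muscle. Only unloaded replicate 4 reached the weight bearing range, where it lay above replicate 3. The means were 7.50 ± 0.13 and 7.75 ± 0.08 (SD, n = 4 each), a 1.19-fold fall (log2 change -0.25, 95% interval -0.41 to -0.09, limma adjusted p = 0.0307). The call did not hold by the methods' t-test (adjusted p = 0.0977). It was also lost without unloaded replicate 1 (0.0677), 2 (0.0837) or 3 (0.0530) and without weight bearing replicate 1 (0.0673), 2 (0.0758) or 4 (0.0688), while the log2 change stayed between -0.30 and -0.21.

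Insig1, which retains the SCAP complex and is itself a target of SREBP, was at 7.67, 7.48, 7.75 and 7.87 in unloaded and 7.67, 7.64, 7.53 and 7.75 in weight bearing muscle. The ranges lay across each other. Its log2 change was 0.05 with a 95% interval from -0.13 to 0.23 (limma adjusted p = 0.685). Without unloaded replicate 4 the change was -0.01 (adjusted p = 0.946). The size of the Insig1 change was above that of 23.0% of all probe sets, the lowest standing of the 7 genes.

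To compare genes within an array, the log2 value of one gene was subtracted from that of another and the difference compared between the groups by an exact permutation test (two-sided), for 5 pairs. Srebf1 minus Srebf2 was 0.62, 0.60, 0.80 and 0.38 in unloaded and -0.28, -0.37, -0.14 and 0.00 in weight bearing muscle. The groups did not overlap, and the difference moved by 0.80 on the log2 scale (exact permutation p = 0.0286, adjusted p = 0.143 over 5 pairs). That p is the smallest that 4 against 4 arrays can give, and after the adjustment no pair passed. Insig1 against its paralog Insig2 moved by 0.18 (exact permutation p = 0.0857, adjusted p = 0.214), with Insig2 itself at a log2 change of -0.13 (limma adjusted p = 0.109). Srebf1 minus Fasn moved by 0.31 (exact permutation p = 0.314, adjusted p = 0.393), with 0.14 and 0.18 without unloaded replicate 3 or weight bearing replicate 4, and 0.49 and 0.48 without unloaded replicate 4 or weight bearing replicate 1.

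The start regions of the 2 genes that were called are shown because these genes moved in opposite directions and both answer to sterols. They are RefSeq windows from 250 bases before to 50 after an annotated start (GRCm38.p6), written 5′ to 3′ on the strand of the gene. Srebf1 has 3 such windows, and those with a motif match are shown, start 1 at chr11:60222532-60222831 and start 3 at chr11:60210422-60210721, both on the minus strand. The Srebf2 window is chr15:82147019-82147318 on the plus strand. Capitals mark matches to the motifs named after the sequences.
Srebf1 start 1: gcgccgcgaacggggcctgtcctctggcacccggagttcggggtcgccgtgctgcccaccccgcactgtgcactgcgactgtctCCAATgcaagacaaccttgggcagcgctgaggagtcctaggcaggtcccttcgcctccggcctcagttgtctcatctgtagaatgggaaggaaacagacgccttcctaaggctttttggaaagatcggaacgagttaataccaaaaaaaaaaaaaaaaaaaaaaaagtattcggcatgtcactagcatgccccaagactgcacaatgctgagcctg
Srebf1 start 3: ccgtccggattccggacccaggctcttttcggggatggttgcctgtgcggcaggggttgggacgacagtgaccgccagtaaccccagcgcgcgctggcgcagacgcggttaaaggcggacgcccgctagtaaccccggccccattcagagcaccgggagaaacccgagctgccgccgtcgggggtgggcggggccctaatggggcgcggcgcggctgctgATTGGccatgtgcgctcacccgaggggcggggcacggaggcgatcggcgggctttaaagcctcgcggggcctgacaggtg
Srebf2: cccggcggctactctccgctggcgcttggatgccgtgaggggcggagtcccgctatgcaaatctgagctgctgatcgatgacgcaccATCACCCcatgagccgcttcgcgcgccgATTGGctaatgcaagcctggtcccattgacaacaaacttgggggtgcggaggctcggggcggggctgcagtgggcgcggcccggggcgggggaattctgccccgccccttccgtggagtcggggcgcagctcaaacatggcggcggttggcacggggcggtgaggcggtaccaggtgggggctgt
Motifs were searched on both strands, with positions counted from the start as 0. The capitals in Srebf1 are CCAAT, the box bound by NF-Y, at -166 to -162 of start 1 and, on the opposite strand, at -30 to -26 of start 3. In Srebf2 they are CCAAT on the opposite strand (-135 to -131) and ATCACCC (-163 to -157), a core of sterol regulatory elements that was added to the search after the windows had been seen. CCAAT was in 37.4% and ATCACCC in 2.69% of all 32851 windows. The longer TCACNCCAC, a form of the sterol regulatory element held by 1.24% of windows, was in no window of the 5 genes with a promoter entry (Srebf1, Srebf2, Insig1, Acaca and Fasn). CACGTG, the E-box held by 7.15% of windows, was found once among them, in the Insig1 window (-101 to -96), and the Fasn window held ATCACCC at -129 to -123. A match says only that the letters are there, and the lack of one does not show that no sterol regulatory element is present. Srebf1 start 3 holds ctcaccc shortly after its ATTGG, a stretch that differs from ATCACCC in its first letter only and is not marked.

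Cholesterol synthesis was represented by Sqle, squalene epoxidase, which puts oxygen on squalene before the rings close. It was at 5.62, 5.60, 5.77 and 6.08 in unloaded and 6.13, 5.95, 5.82 and 6.04 in weight bearing muscle. These values are dim, under the array medians (6.28 to 6.33), and Sqle dropped out of a fit that omitted the dimmest 50% of probe sets. Unloaded replicates 1 to 3 were below all weight bearing arrays and replicate 4 was within their range. The log2 change was -0.22 (95% interval -0.46 to 0.02, limma adjusted p = 0.163). Without unloaded replicate 4 it was -0.32 and passed the test (adjusted p = 0.0249). The same array was the highest unloaded one for Srebf2, Insig1, Acaca, Fasn and Scd1 too.

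Of 17 other genes of cholesterol synthesis that were measured, 4 were higher and 2 lower (median log2 change -0.12). That is 35.3% called, against 23.8% of all probe sets, and the calls lay at separate steps of the pathway. Mvd, which decarboxylates mevalonate diphosphate, rose 1.29-fold, and Fdft1, the squalene synthase one step before Sqle, rose 1.27-fold (limma adjusted p = 0.0058 and 0.0018). Hsd17b7, a sterol reductase, rose 1.19-fold, and Lss, which closes the rings of the product of Sqle, rose 1.13-fold (adjusted p = 0.0140 and 0.0426). Dhcr7, a reductase at the end of the pathway, fell 1.44-fold (adjusted p = 0.000300). By the methods' t-test 2 were higher (Mvd and Fdft1) and 1 lower (Dhcr7). Lss lost its call in 7 of the 8 fits without 1 array (all but that without unloaded replicate 1, adjusted p up to 0.0987). It is also dim, with means of 6.17 in unloaded and 5.99 in weight bearing muscle, under the array medians (6.28 to 6.33). Without unloaded replicate 2 or 3 or weight bearing replicate 2, the count of lower genes was 1.

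**Figure D2:**
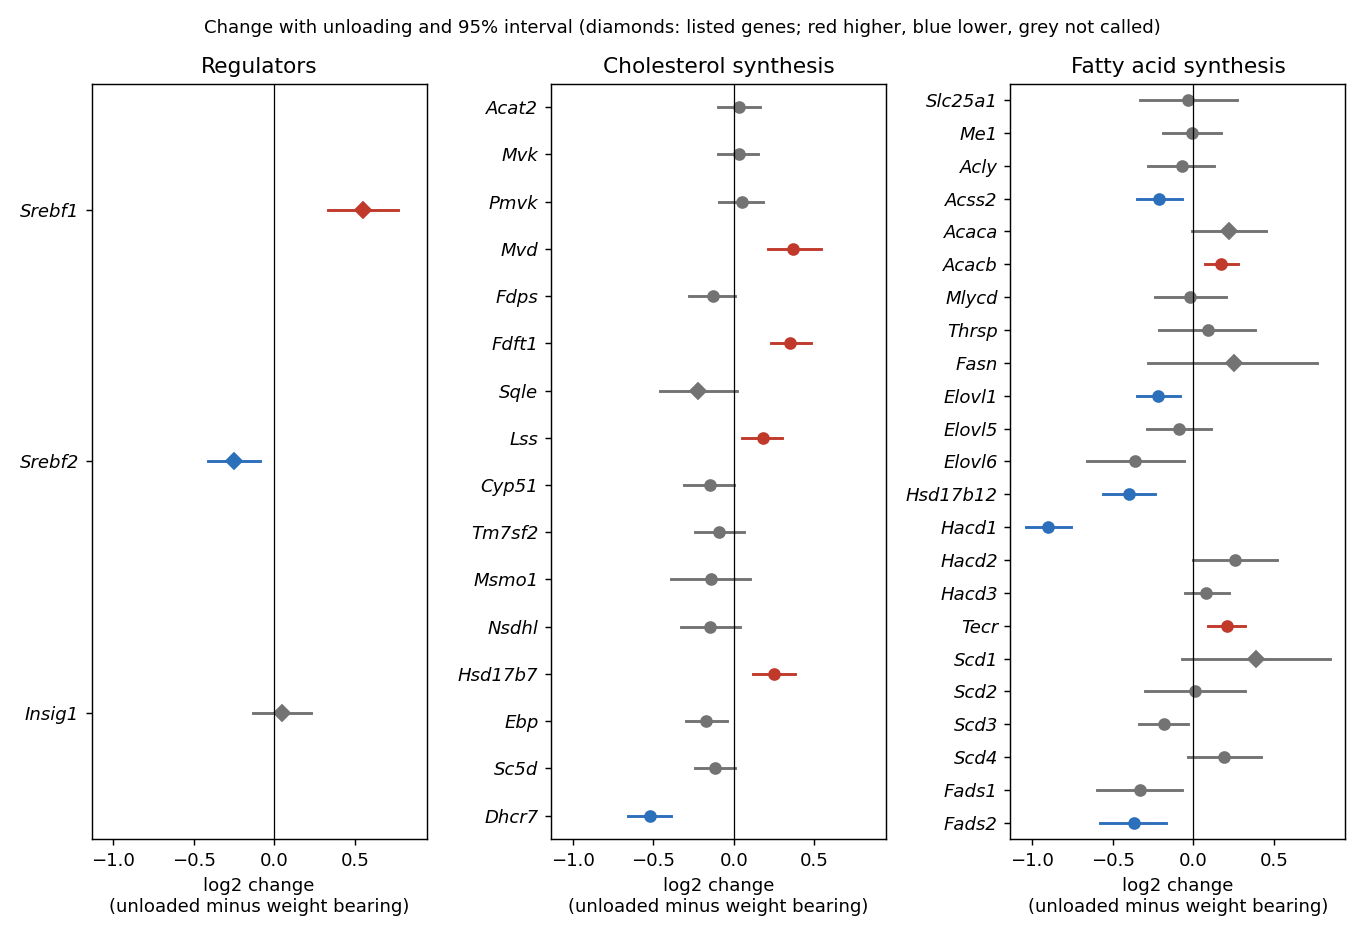
Log2 change (unloaded minus weight bearing, horizontal axis) with its 95% interval from limma for the regulators, cholesterol synthesis and fatty acid synthesis, in which diamonds mark the 7 genes and circles the other pathway genes reported. Srebf1 and Srebf2 lie on opposite sides of 0, and Fasn and Scd1 have wide intervals (-0.28 to 0.77 and -0.07 to 0.85).

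None of the 3 enzymes of fatty acid synthesis was called, and all 3 had a mean above that of weight bearing muscle. Acaca, acetyl-CoA carboxylase 1, makes the malonyl-CoA from which fatty acids are built. It was at 7.04, 6.91, 7.07 and 7.25 in unloaded and 6.56, 6.84, 7.06 and 6.93 in weight bearing muscle. Weight bearing replicates 1 and 2 were below all unloaded arrays, and replicates 3 and 4 fell among the unloaded values. The log2 change was 0.22 (95% interval -0.01 to 0.45, limma adjusted p = 0.157), and it was 0.12 (adjusted p = 0.340) without weight bearing replicate 1. Acacb, the second acetyl-CoA carboxylase, known in muscle for restraining fatty acid oxidation, rose 1.13-fold (adjusted p = 0.0271, lost without unloaded replicate 2, 3 or 4 or weight bearing replicate 4, up to 0.0652). Acaca minus Acacb within arrays moved by 0.05 (exact permutation p = 0.771, adjusted p = 0.771), and by -0.07 to 0.11 with 1 array left out.

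Fasn, fatty acid synthase, was at 8.46, 8.31, 8.26 and 9.01 in unloaded and 7.67, 8.14, 8.36 and 8.88 in weight bearing muscle. The groups overlapped, with the weight bearing values 8.36 and 8.88 inside the unloaded range and 7.67 and 8.14 below it. The spread among weight bearing arrays (1.21 from lowest to highest) exceeded the difference of the means. The log2 change was 0.25 with a 95% interval from -0.28 to 0.77 (limma adjusted p = 0.474). It was 0.05 without weight bearing replicate 1, 0.08 without unloaded replicate 4 and 0.45 without weight bearing replicate 4 (adjusted p = 0.889, 0.839 and 0.142). Its SD within groups, 0.43, was larger than that of 99.6% of probe sets, whose median was 0.09.

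Scd1, the desaturase that makes oleate from stearate, was at 11.35, 11.46, 10.81 and 11.71 in unloaded and 10.56, 10.87, 10.90 and 11.45 in weight bearing muscle. Unloaded replicate 3 was low and weight bearing replicate 4 high within their groups. The log2 change was 0.39 (95% interval -0.07 to 0.85, limma adjusted p = 0.199), a larger change than that of 93.5% of probe sets with an SD within groups (0.38) larger than that of 99.3%. With 1 array left out the change ran from 0.26, without unloaded replicate 4 or weight bearing replicate 1 (adjusted p at most 0.407), to 0.56, without unloaded replicate 3 (0.0604) or weight bearing replicate 4 (0.0608). Scd2, the paralog next to it in the family, was at 8.63 ± 0.19 and 8.62 ± 0.30 (SD, n = 4 each). Scd1 minus Scd2 moved by 0.38 (exact permutation p = 0.286, adjusted p = 0.393), with 0.25 and 0.24 without replicate 2 of the unloaded or the weight bearing group and 0.61 without unloaded replicate 3. Scd genes are close copies, and whether their probes share signal was not tested.

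Fat cells express Acaca, Fasn and Scd1 strongly, so markers of fat cells were read on each array too. Of 12 adipocyte markers 1 was higher and 0 lower (8.33% called, against 23.8% of all probe sets). The higher one was Pnpla2, a triglyceride lipase that muscle fibres express too (1.26-fold). Of the 12 log2 changes 7 were above 0 and 5 below, from -0.30 for Cfd to 0.81 for Lep. Neither Cfd nor Lep was called (limma adjusted p = 0.25 and 0.18), but 3 of the 4 unloaded Lep values were above all weight bearing ones. The summed linear level of the 12 ran from 6264 to 8382 on unloaded and from 5963 to 7704 on weight bearing arrays. Pnpla2 (mean log2 value 11.14 in unloaded and 10.81 in weight bearing muscle) and Fabp4 (10.92 and 10.99) are the brightest and weigh most in it. The sum is therefore not a measure of fat cells alone. The mean log2 value of Adipoq, Plin1 and Cidec was lowest on unloaded replicate 3 (7.32) and weight bearing replicate 3 (7.36) and between 7.95 and 8.45 on the others. Scd1 and Fasn were lowest among unloaded arrays on replicate 3, but Acaca was lowest on replicate 2 (6.91, against 7.07 on replicate 3). All 3 enzymes were highest on unloaded replicate 4, which also had the highest adipocyte value (8.45). On weight bearing arrays the order differed: the enzymes were lowest on replicate 1, where the adipocyte value was 7.97. With that adipocyte value as a covariate, chosen after the data were seen, the log2 changes of Acaca, Fasn and Scd1 were 0.22, 0.25 and 0.40 and none was called (limma adjusted p = 0.179, 0.463 and 0.129), while Srebf1 (0.55, adjusted p = 0.0043) and Srebf2 (-0.25, adjusted p = 0.0292) were called. The covariate, which rests on 3 of the 12 markers, was alike in the groups (7.95, 8.10, 7.32 and 8.45 on unloaded, 7.97, 8.38, 7.36 and 8.16 on weight bearing arrays). It could therefore hardly move the log2 changes, and this fit cannot tell what part fat content had in them. The part of fat cells in the spread of these genes was not tested further.

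**Figure D3:**
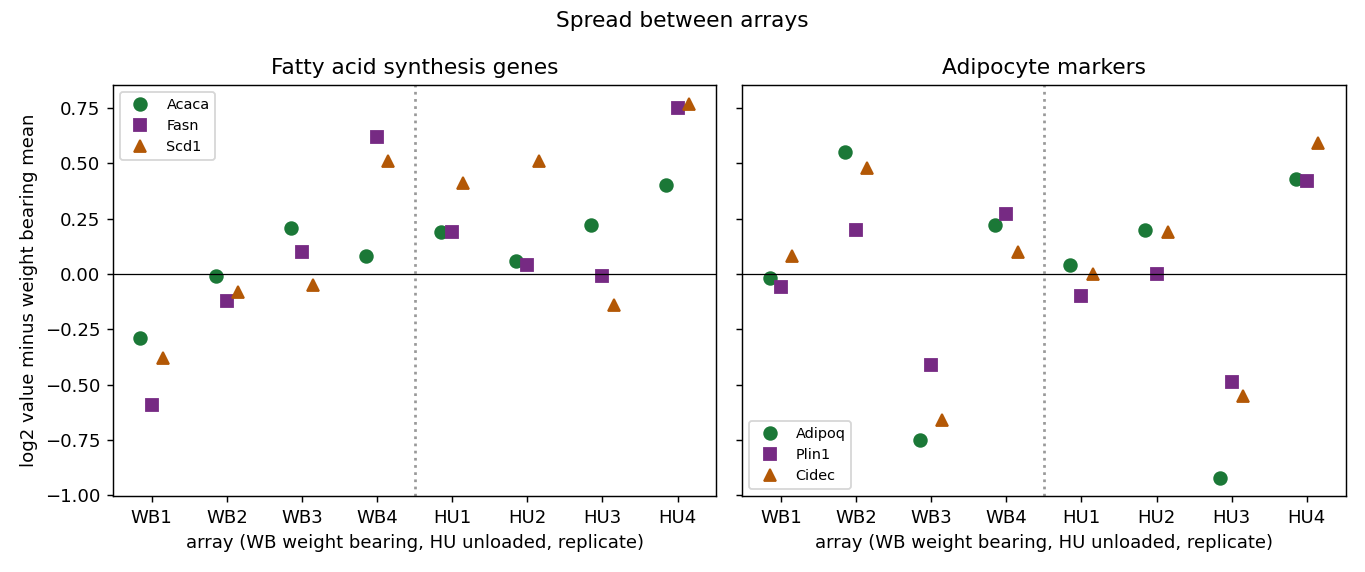
Log2 value minus the weight bearing mean (vertical axis) on each array for 3 fatty acid synthesis genes (left) and 3 adipocyte markers (right), with 1 point per gene and array. Fasn runs from -0.59 on weight bearing replicate 1 to 0.75 on unloaded replicate 4, and the adipocyte markers are lowest on replicate 3 of both groups.

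Genes of the other cell types of muscle were counted too. Of 10 macrophage and 10 fibroblast markers 7 and 7 were lower and none was higher (median log2 change -0.43 and -1.21). Their summed linear levels ran from 1828 to 2312 on unloaded and 2444 to 2918 on weight bearing arrays for macrophages, and from 10021 to 10409 and 14578 to 16712 for fibroblasts. The largest falls were those of Adgre1 (1.69-fold) and Col1a1 (5.58-fold). The markers not called were Cd68, Cd163 and Cd14 of macrophages (log2 change -0.04, -0.18 and -0.25). Among fibroblast markers they were Dcn, Pdgfra and Gsn (-0.02, -0.11 and -0.11). Of 12 markers of Schwann cells, which make cholesterol for myelin, 1 was higher (Prx, 1.20-fold) and 0 lower (8.33% called, against 23.8%). Of 10 muscle fibre markers 40.0% were called, against 23.8% of all probe sets. Des was higher, and Myh2, Mb and Acta1 were lower, the last called in 2 of the 8 fits without 1 array (lost without unloaded replicate 2, 3 or 4 or weight bearing replicate 1, 2 or 3). The part of these cell types in the changes of Srebf1 and Srebf2 was not tested.

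Of 20 other genes of fatty acid synthesis and elongation 2 were higher and 5 lower (median log2 change -0.05), and by the methods' t-test 0 and 1, Hacd1. The limma calls made up 35.0% of the list, against 23.8% of all probe sets. The falls included enzymes that lengthen the product of Fasn: Hacd1, the dehydratase of that cycle in muscle, fell 1.86-fold (11.74 ± 0.10 in weight bearing and 10.84 ± 0.08 in unloaded muscle, SD, n = 4 each, limma adjusted p = 1.63e-05) and Hsd17b12, its ketoreductase, 1.32-fold. Tecr, which completes the cycle, rose 1.15-fold (lost without weight bearing replicate 1, adjusted p = 0.0528). Fads2, a desaturase of polyunsaturated fatty acids, fell 1.29-fold. Elovl1, an elongase of very long chains, and Acss2, which makes acetyl-CoA from acetate, were also lower (limma adjusted p = 0.0258 and 0.0334). Elovl1 lost its call without unloaded replicate 2 or 4 or weight bearing replicate 1 or 2, and Acss2 without any 1 unloaded array or weight bearing replicate 3 or 4.

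Genes that control SREBP were called in both directions, 3 higher and 3 lower of 18 (median log2 change 0.04). That is 33.3% called, against 23.8% of all probe sets. Rnf145, a ubiquitin ligase of the sterol response, rose 1.39-fold, and Nr1h2, the liver X receptor beta, rose 1.14-fold. Marchf6, a ligase that degrades squalene epoxidase, the product of Sqle, rose 1.13-fold (limma adjusted p = 0.0279), a call lost without replicate 1, 2 or 3 of either group. Mlxipl, the carbohydrate response factor ChREBP that shares lipogenic targets with SREBP-1c, fell 1.37-fold, and Erlin2 and Erlin1, which act on the turnover of sterol-regulated proteins, fell 1.23-fold and 1.19-fold. By the methods' t-test 1 was higher and 3 were lower. Scap was at a log2 change of 0.15 (limma adjusted p = 0.0675), and it was chosen after its values were seen.

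Of 12 genes of cholesterol uptake and export 3 were higher and 1 lower (33.3% called, against 23.8% of all probe sets). Abca1, the exporter of cholesterol to apolipoprotein A-I, rose 2.09-fold (8.03 ± 0.11 in weight bearing and 9.10 ± 0.08 in unloaded muscle, SD, n = 4 each, limma adjusted p = 8.85e-06), a larger change than that of Srebf1. Npc1, which moves cholesterol out of lysosomes, rose 1.69-fold and Mylip, the ligase that degrades the LDL receptor, 1.59-fold. Scarb1, a receptor of high density lipoprotein, fell 1.18-fold. Of 13 genes of triglyceride synthesis 2 were higher and 1 lower, a share of 23.1% that is near the 23.8% of all probe sets. Lpin1, a phosphatidate phosphatase, was 1.34-fold higher and Gpam, the first acyltransferase, 1.41-fold lower. Mogat1, a monoacylglycerol acyltransferase, was 1.15-fold higher (limma adjusted p = 0.0339), a call lost without unloaded replicate 2 or 3 or weight bearing replicate 1, 2 or 3. Its values are dim, with means of 4.13 in unloaded and 3.93 in weight bearing muscle, far under the array medians (6.28 to 6.33).

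**Figure D4:**
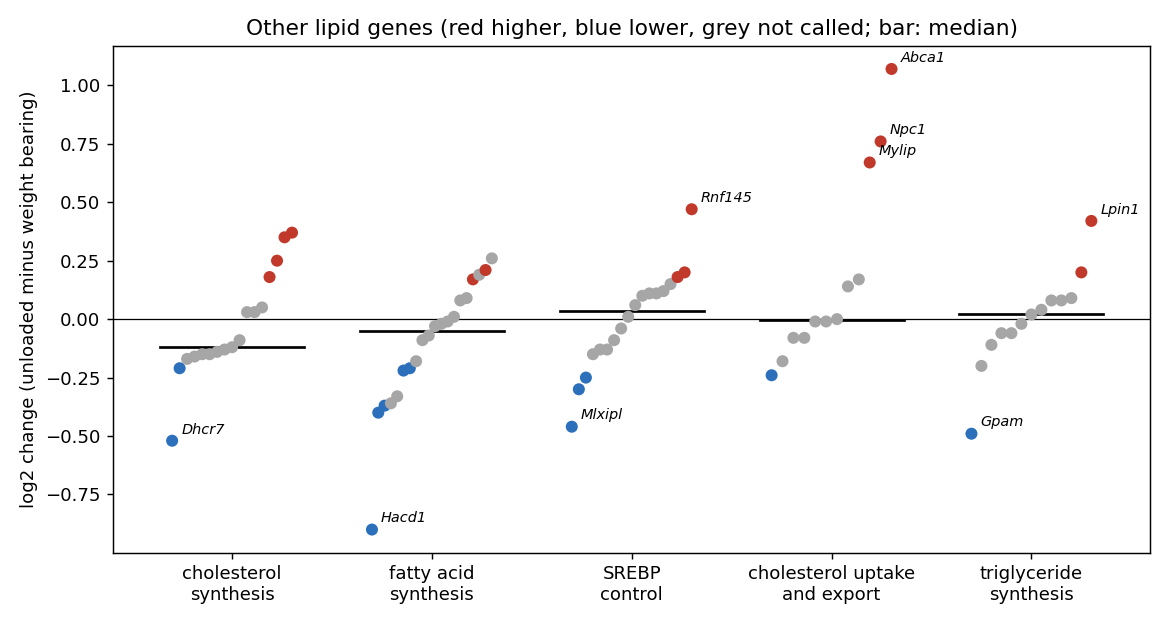
Log2 change (unloaded minus weight bearing, vertical axis) of the other measured lipid genes in 5 lists, 1 point per gene, with the list median as a bar and genes called beyond 0.4 named. Abca1 (1.07) is highest and Hacd1 (-0.90) lowest.

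The genes outside these lists whose profile was closest to Srebf1 over the 8 arrays, by root mean square distance of log2 values from the weight bearing mean, were Fam221a (0.071), Fam71e1 (0.083) and Lncpint (0.092). Those closest to Srebf2 were Dbn1, drebrin (0.037), Gm14150 (0.047) and Slc22a23 (0.050).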

How the data were processed

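Total RNA of 4 unloaded and 4 weight bearing mice was measured on 8 Affymetrix Mouse Gene 1.0 ST arrays. The deposited log2 values were made by the authors with robust multi-array analysis (RMA) on a Brainarray custom probe set definition, that is, background correction, quantile normalization across arrays and a summary of the probes of each gene. Neither its release nor a genome build was given in the sources used here. A shift common to all genes is removed by that normalization. Precision is limited by the 4 arrays per group. No 2 arrays were identical, and 0 columns were left unused.

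Row names are Entrez gene IDs, equal to the platform annotation in 99.74% of annotated rows. Names came from that annotation for 18786 probe sets and from the ID through RefSeq for 1917, while 6 had several genes and 503 no name. For 3 genes with more than 1 probe set the brightest was used. All 21212 probe sets entered 1 linear model of limma 3.58.1 under R 4.3.3, with moderated two-sided tests, no filter and no rescaling, and p-values were adjusted by Benjamini-Hochberg. A gene is called at an adjusted p under 0.05. The fit was tested on simulated arrays with known changes. Python 3.11.15 and scipy 1.17.1 served for the exact permutation tests. What is called the methods' t-test stands in for the parametric t-test with p and q limits that the study names. Unequal variances and Benjamini-Hochberg adjustment were chosen here, since the study states neither, so its counts need not be those of the study's own test.

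The genes and lists were chosen with earlier results of these data known. Named were the 7 genes, up to 6 called genes of each list with the largest change, the second gene of each pair, and for each called gene the 3 nearest profiles. Of these the text prints a part. Alternatives were an intensity trend with robust variance, array weights, quantile normalization, array medians set to 0, omission of the dimmest 25% or 50% of all probe sets, the replicate number as a block, an unadjusted p, each array left out in turn and, added after seeing the data, an adipocyte marker level as a covariate. For 2 of 7 planned pairs Hmgcs1 was needed, and they were not run. Some genes of the cholesterol synthesis list are counted in it but not reported singly here.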

Additional observations from a re-analysis of the deposited data

Results flagged for a closer look

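In 116 groups of 4 values, made of the named genes and pairs in each group, the distance of the highest or lowest array from the rest was compared with Dixon's 95% critical value. Chance alone sets a value apart in about 1 in 20 such groups, and it was so in 4. Srebf1 stood out in both groups. In unloaded muscle its highest array, replicate 3, was at 8.34 where the others lay between 8.01 and 8.04. In weight bearing muscle its highest array, replicate 4, was at 7.80 where the others lay between 7.44 and 7.49. Without the first the log2 change of Srebf1 was 0.47 (limma adjusted p = 0.00657), and without the second it was 0.63 (0.00116). The other values set apart were the lowest weight bearing array of C1qc, a complement gene of macrophages (7.69, others between 7.84 and 7.87), and the lowest unloaded array of Col3a1, a collagen chain (7.30, others between 7.49 and 7.53).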

How the results depend on the processing

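Srebf1 was called higher in every alternative run, with log2 changes from 0.47 to 0.63, and was the 1 gene of the 7 called higher in each of them. The count of the 7 genes called lower, 1, was 0 by the methods' t-test (Srebf2 at -0.25, adjusted p = 0.0977) and between 0 and 2 with 1 array left out (Srebf2 between -0.30 and -0.21, Sqle between -0.32 and -0.16, where Sqle was called without unloaded replicate 4). Insig1 ran from -0.01 to 0.12 with 1 array left out, and its sign turned without unloaded replicate 4. The uncalled Scd2 changed sign with array weights (-0.01) and without unloaded replicates 1, 3 and 4 and weight bearing replicates 1 and 3 (lowest -0.08, with -0.01, -0.04, -0.01 and -0.07 for the others). For the cholesterol synthesis list the methods' t-test called 2 higher and 1 lower, the fit without the dimmest 50% of probe sets 4 lower, the replicate block 1 lower and an unadjusted p 4 lower. Leaving out 1 array gave between 3 and 4 higher and between 1 and 3 lower. For the fatty acid synthesis list the methods' t-test called 0 higher and 1 lower, the replicate block 1 higher and an unadjusted p 8 lower, and leaving out 1 array gave between 1 and 2 higher and between 3 and 5 lower. The causes were not tested. No within-array difference could be read for stability against the threshold, since 1 separated pair of 5 reaches an adjusted p of 0.143 at best. With 1 array left out, Acaca minus Acacb ran from -0.07 to 0.11. Replicate numbers are shared by the groups. Same-numbered arrays deviated together with r between 0.024 and 0.12, and arrays of unlike number with r between -0.138 and 0.102. Not every array correlated best with its own number, so the numbers were not taken as pairs. Whether a number marks shared handling was not tested. With the replicate number as a block, 2455 probe sets were higher and 2213 lower instead of 2715 and 2324. Srebf1 (0.55, limma adjusted p = 0.00776) and Srebf2 (-0.25, adjusted p = 0.0441) stayed called and the other 5 genes stayed uncalled. Under the block the limma adjusted p was 0.213 instead of 0.474 for Fasn and 0.076 instead of 0.199 for Scd1. The methods' t-test called 1393 higher and 1374 lower. Without 1 array between 1802 and 2852 were higher.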
